A study of Ditylenchus destructor and Heterodera glycines and Meloidogyne incognita with 162 samples.

Results

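The head-to-head gene pairs of the soybean cyst nematode Heterodera glycines are neighbouring genes transcribed away from each other. The genes of the count table were sorted by contig and start, and a pair was taken where the left gene lay on the minus strand, the right gene on the plus strand, and the right start minus the left end was 1 to 1000 bases. This gave 1573 pairs with 3146 genes, which is 17.3% of the 18219 genes of the table and 8.75% of its 17981 pairs of consecutive genes. The whole series holds 79337 genes in 3 species. No measured value entered the choice.

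In a head-to-head pair, the upstream regions of both genes lie in the same stretch between them. Such a stretch can act as a shared, bidirectional promoter, or as separate promoters placed back to back, and divergent neighbours are known in many eukaryotes for being transcribed together more often than distant genes. In nematodes, the leader of many transcripts is replaced by trans-splicing, so the annotated start of a gene need not be the place where transcription begins. The gene IDs of this table are not paired with names or functions in the sources used here, so the genes are described by ID, position and level.

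RNA of whole single embryos was measured with Smart-seq2, a full-length protocol for very small inputs. All H. glycines embryos were of strain Hg5# and came from eggs released from cysts on infected soybean roots. The early groups are Zygote, 2-cell, 4-cell and 8-cell, the groups with more cells are 24-44 cell and 64-78 cell, and the later ones Comma, 1.5-fold, 2-fold, the Moving embryo and the L1 larva, with 5 libraries each except 4 at 2-fold. Whether embryos of 1 stage were taken from different cultures is not said, and a p-value below therefore reflects embryo-to-embryo spread only. The labels name no agent or genetic change. A higher level at a later stage can come from more cells with the transcript or from more transcript per cell, which cannot be told apart here.

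Libraries held 181109 to 10955776 counts. The smallest was Zygote replicate 3, while the other Zygote libraries held 4376894 to 6224278 counts. Its CPM values rest on few counts: 166 CPM of HG17331 in it was 30 counts. The Moving columns 1 and 2 differed in 17 genes and were counted as 1 library, named Moving replicate 1, which left 53 libraries. The Comma libraries were small, with 432574 to 1828689 counts. They stood apart in the share of counts that fell in the members and in how many genes were highest there. Most correlations, the on states of pairs and the stages of highest level shared by partners are therefore also given without them. Other values over all stages, such as the on states of single genes, include Comma. Within the early stages, 4-cell replicates 2 and 4 stood apart for several members. For HG13377 the 4-cell libraries gave 27087, 39.2, 21441, 181 and 38602 CPM in replicate order, where CPM is the count divided by the total of the library and multiplied by 1000000, and for HG08830 they gave 11856, 15.8, 13580.3, 61.1 and 20916 CPM. In both genes replicates 2 and 4 were far below the others. At 1.5-fold, replicate 4 had both genes of 660 pairs at 1 CPM or more, against 982 to 1040 in the other libraries. What set these libraries apart was not tested.

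The 1573 pairs lay on 186 of 238 contigs, and contig 193 held the most, with 88. The distance between the genes had a median of 460 bases (quartiles 259 and 710) and ran from 26 to 1000 bases. There were 373 pairs up to 250 bases apart, 478 from there up to 500, 391 up to 750 and 331 up to 1000. Of all 4516 head-to-head pairs of consecutive genes, 34.8% were within the limit of 1000 bases. By comparison, 52.8% of 4547 tail-to-tail pairs, which are transcribed towards each other, and 41.1% of 8918 same-strand pairs were this close. The pairs nearest to the limit on its inner side were HG07297/HG07298 at 997 bases, HG03710/HG03711 at 999 and HG12589/HG12590 at 1000. Just outside it were HG01869/HG01870, 1 base past the limit, and HG04691/HG04692 and HG10920/HG10921, both at 1004 bases. The smallest distance was 26 bases, between HG02520 and HG02521 on contig 33, followed by 30 bases between HG00300 and HG00301 on contig 10. The genomic span of a member, introns included, had a median of 1805 bases against 2110 for all other genes. Many members had a close neighbour on their other side too: 753 members (23.9%) had a downstream gene on the same strand within 1000 bases and 1035 (32.9%) had a tail-to-tail neighbour within that distance. The classes of pairs compared below therefore share genes. No consecutive genes of the table overlap, but Smart-seq2 does not mark the strand, so reads of the other strand within the span of a gene cannot be told apart from its own. Coordinates are those of the contigs in the table, whose assembly version is not given in the sources used here.

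Members were more often detected than genes without a close neighbour. A gene counted as on at a stage if its libraries averaged 1 CPM or more. At every one of the 11 stages, 1576 members (50.1%) were on, while 160 were on at no stage and 46 had 0 counts in all libraries. The share on at every stage was 53.9% for genes of tail-to-tail pairs within 1000 bases, 52.5% for genes of same-strand pairs within 1000 bases, 39.3% for genes of head-to-head pairs over 1000 and up to 5000 bases and 22.8% for genes in no pair within 1000 bases. The median level over all libraries, as CPM per kb of genomic span, was 9.90 for members and 11.4, 10.6, 4.83 and 2.17 for these classes in the same order. The head-to-head members stood above distant pairs and single genes but not above the other close classes. These shares describe the table and were not tested.

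Members took a share of the counts that moved with the stage. The 5 Zygote libraries gave them 26.7% to 27.3% of their counts (27.1% ± 0.211, SD, n = 5), and the share was 29.6% ± 0.409 (n = 5) at 64-78 cell. It was 16.9% ± 2.29 (n = 5) in the Comma libraries, 33.0% ± 2.30 (n = 5) at 1.5-fold, 26.5% ± 1.37 (n = 4) at 2-fold, 22.3% ± 1.91 (n = 4) at Moving and 21.5% ± 0.376 (n = 5) at L1. The 1.5-fold libraries, at 31.4% to 37.1% (31.4% to 32.4% without replicate 4), lay above every library of the other stages, and the L1 libraries, at 21.0% to 22.0%, did not overlap with any stage before Comma. Genes of tail-to-tail pairs within 1000 bases took 36.2% at Zygote, 30.6% at Comma, 47.2% at 1.5-fold and 34.7% at L1. Genes of same-strand pairs within 1000 bases took 46.6%, 37.8%, 38.6% and 37.6% at these stages. The high at 1.5-fold and the low at Comma were thus shared by the tail-to-tail genes, a class that overlaps with the members. No test was run on this sum over the members.

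**Figure D1:**
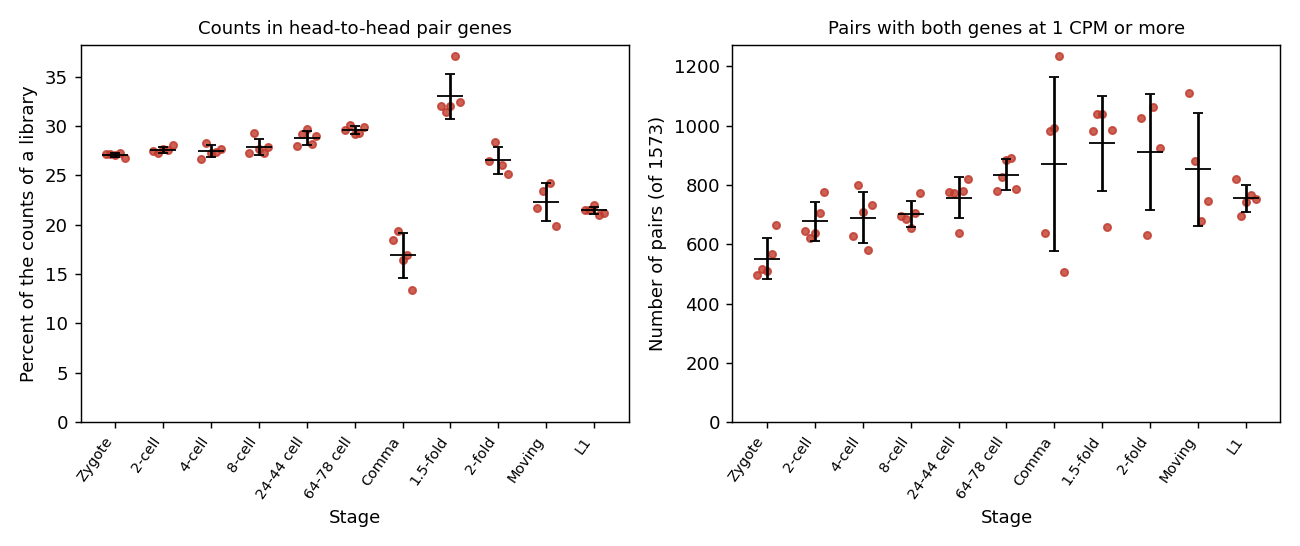
Left, the percent of the counts of each library that fell in head-to-head pair genes. Right, the number of the 1573 pairs with both genes at 1 CPM or more in a library. Each point is 1 library, and the dash and bar are the mean and SD of a stage. The share is highest at 1.5-fold (33.0%) and lowest at Comma (16.9%).

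How much of these shares a few genes made up differed between stages. The 10 most abundant members held 4.88% of the members' CPM at Comma, 6.67% at 8-cell, 8.97% at Zygote and 11.0% at 64-78 cell, but 22.2% at 2-cell, 25.7% at L1 and 37.7% at 1.5-fold. At 1.5-fold the most abundant, HG16585 (contig 228, plus strand, bases 1021393 to 1023226), reached 68241, 59530.5, 69588, 96776 and 81595 CPM in the 5 libraries. Its mean of 75146 ± 14421 CPM (SD, n = 5) fell to 43.4 ± 20.3 CPM at L1. The other members together held 25.5% of all CPM at 1.5-fold, with HG16585 kept in the library totals. The partner, HG16584, starts 50 bases away on the other strand and gave 143, 134, 157, 432 and 195 CPM in the same libraries. The next most abundant member at 1.5-fold was HG17947 with 32086 ± 13187 CPM, and its partner HG17946 had 18.4 ± 12.7 CPM. These genes, like the others of this and the next 2 paragraphs, were picked for their level after the values were seen, and no test is given for that choice.

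At the Zygote, 2-cell and 4-cell stages the most abundant member was HG13377 (contig 185, minus strand, bases 1645561 to 1652387). Its 2-cell libraries held 18898, 24792, 25973, 37054 and 58698 CPM, and its partner HG13378 held 131, 409, 190.0, 145 and 85.3 CPM. At Zygote HG13377 was uneven, with 766, 4327, 20386, 711 and 12298 CPM in the 5 libraries. HG08830 (contig 130, minus strand, bases 366812 to 370042) was second at these stages, with 14165 ± 7964 CPM at 2-cell. Its partner HG08831 was near 0 throughout, at 0 to 0.407 CPM in the 2-cell libraries. At 8-cell HG08150 (contig 117) was the most abundant member with 2709 ± 818 CPM, and its partner HG08149 was also high there, with 1347 ± 757 CPM. In the 8-cell libraries HG13377 was at 8.48, 190.5, 424, 0.687 and 58.4 CPM and HG08830 at 0, 1.08, 204, 0.343 and 26.6 CPM.

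Later stages had other leading members. HG16826 led at 24-44 cell (6447 ± 1568 CPM) and at 64-78 cell (6006 ± 402 CPM), where its partner HG16827 had 219 ± 43.9 CPM. HG04242 led at 2-fold on the strength of 3 libraries, with 23386, 1.32, 15291 and 12677 CPM, and its partner HG04243 was at 0 to 0.746 CPM there. HG00832 led at Moving and at L1, where it gave 25407, 17775, 20270.5, 47003 and 34678 CPM. Its partner HG00831, 96 bases away, was also high at L1, with 252, 1433, 621, 1162 and 692 CPM. The single library Moving replicate 3 held 29519 CPM of HG01945, which was at 0 to 2.49 CPM in the L1 libraries.

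The number of pairs with both genes on differed between stages. At Zygote both genes were on in 740 pairs (47.0%), 1 gene in 418 (26.6%) and neither in 415 (26.4%). By 64-78 cell both were on in 965 pairs (61.3%), and at 1.5-fold and 2-fold in 1090 (69.3%). The count was 1085 at Moving and 906 (57.6%) at L1, and the Comma libraries gave 1315 (83.6%). Tail-to-tail pairs within 1000 bases had both genes on in 52.4% at Zygote, 66.8% at 64-78 cell, 74.5% at 1.5-fold and 66.9% at L1. Same-strand pairs within 1000 bases had 51.5%, 64.7%, 72.1% and 66.3% at these stages, and distant head-to-head pairs 34.7%, 48.6%, 56.3% and 49.4%. At every stage the head-to-head share was below both other close classes and above the distant pairs. Over the whole series of stages, 600 pairs (38.1%) had both genes on at every stage and 32 had neither on at any. In 96 pairs only 1 gene was ever on, and in 23 pairs 1 gene was on at every stage while the other was on at none. Without Comma these counts were 612, 65, 174 and 41 in the same order. Depth and the number of detected genes differ between stages, so the counts describe these libraries.

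To see whether partners followed the same course, Pearson's r of the stage means of log2(CPM + 1) was taken over the 11 stages for the 1445 pairs in which both genes were on at some stage. The other 128 pairs were left out. The median r was 0.514, with quartiles of 0.133 and 0.764. There were 738 pairs with r above 0.5 and 141 above 0.9, while 273 pairs had a negative r and 58 were below -0.5. Without Comma, 1334 pairs were kept, of which 582 had r above 0.5, 70 above 0.9, 297 a negative r and 66 an r below -0.5. Tail-to-tail pairs at the same distance had a median of 0.294 (2287 pairs), head-to-head pairs over 1000 and up to 5000 bases 0.389 (1817 pairs) and same-strand pairs within 1000 bases 0.458 (3379 pairs). Without the Comma stage the medians were 0.412 for head-to-head, 0.186 for tail-to-tail, 0.246 for distant head-to-head and 0.418 for same-strand pairs, so the order of head-to-head and same-strand pairs turned. The points of each r are stage means of the same 53 libraries in every class, and no p is given.

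The median r was highest in the closest pairs. It was 0.618 for pairs up to 250 bases apart, 0.494 from there up to 500, 0.487 up to 750 and 0.415 up to 1000. Same-strand pairs began at nearly the same value, 0.612, and were at 0.432, 0.320 and 0.348 in the next bins, while tail-to-tail pairs had 0.386, 0.195, 0.318 and 0.281. Without Comma the head-to-head medians were 0.483, 0.394, 0.392 and 0.410, so that only the closest bin stood above the others. The same-strand medians were then 0.557, 0.382, 0.295 and 0.302. The 2 closest pairs had low values. At 26 bases HG02520 and HG02521 had r = 0.02 (-0.21 without Comma), and at 30 bases HG00300 and HG00301 had r = 0.01 (0.13 without Comma). HG00301 was at 75.2, 3.37, 22.1, 77.8 and 49.98 CPM in the Zygote libraries, in which HG00300 was at 0, 0.321, 0, 0 and 0 CPM. HG02521 was highest at Comma, at 88.9 to 261 CPM, and HG02520 gave 0, 18.3, 76.3, 51.4 and 0 CPM there. At 50 bases HG16584 and HG16585 had r = 0.04 (0.0034 without Comma), and at 96 bases HG00831 and HG00832 had r = 0.96 (0.98 without Comma).

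**Figure D2:**
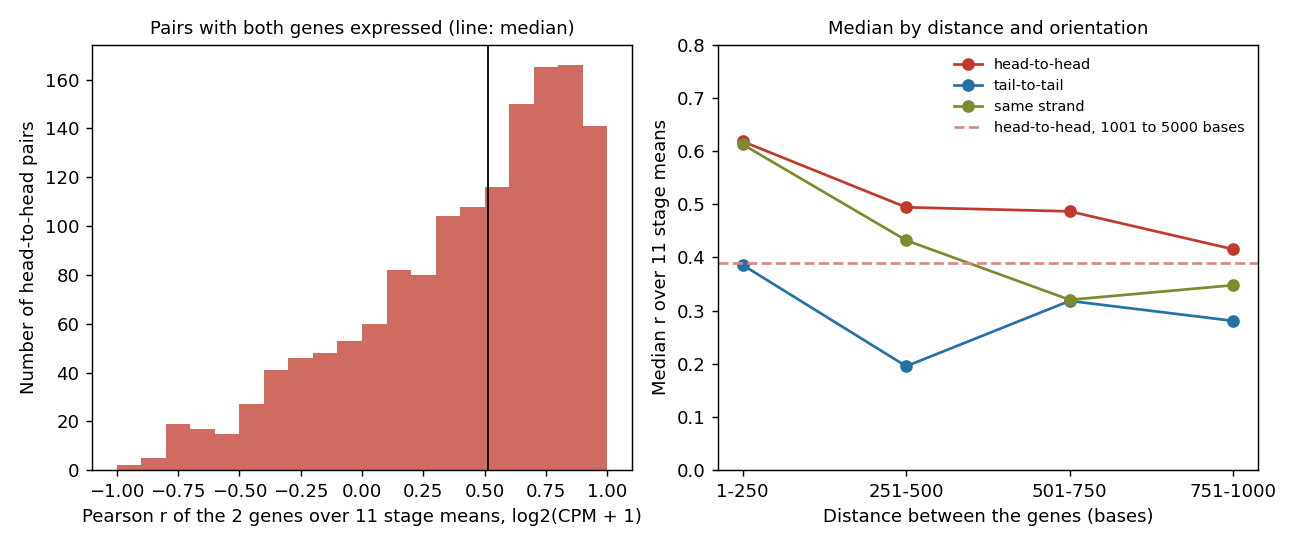
Left, the number of head-to-head pairs by Pearson r of their 2 genes over 11 stage means of log2(CPM + 1), for 1445 pairs, with the median of 0.514 as a line. Right, the median r by distance in bases for head-to-head, tail-to-tail and same-strand pairs, with head-to-head pairs over 1000 and up to 5000 bases as a dashed line (0.389). Head-to-head medians go from 0.618 in the closest bin to 0.415 in the last.

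The stage of highest level was shared by both genes in 469 of the 1445 pairs (32.5%), and by 25.8% of tail-to-tail, 30.3% of same-strand and 31.8% of distant head-to-head pairs. Most of these, 307 pairs, were highest at Comma. Without Comma the share was 23.0% for head-to-head pairs and 15.2%, 22.2% and 18.1% for the other classes in the same order. The order of the classes depended on the processing: with TMM scaling the shares were 22.9% for head-to-head and 18.6%, 23.6% and 22.0% for the others, and with both genes at 10 CPM or more at some stage they were 28.8% and 23.3%, 26.0% and 29.3%. Counting neighbouring stages as well, 651 pairs (45.1%) reached their highest levels together, and 558 (41.8%) without Comma. Comma was the stage of highest level for 35.9% of the members in these pairs and for 47.3% of all expressed genes. Zygote followed, with 11.6% of the members against 9.02% of all expressed genes.

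Between embryos of the same stage the correlation of partners was low in every class. After the stage mean was taken off each library, the median r over libraries was 0.154 for head-to-head pairs, against 0.149 for tail-to-tail, 0.168 for same-strand and 0.126 for distant head-to-head pairs. Without Comma these were 0.127, 0.123, 0.139 and 0.107. Pairs at 1 to 250 bases had 0.227 and the other bins 0.124 to 0.146. Same-strand pairs at 1 to 250 bases had 0.256. For single libraries, the log2(CPM + 1) of each gene was taken as a deviation from its own mean over all 53 libraries. The r of these deviations between left and right genes across pairs therefore includes differences between stages. Its median was 0.220 over the 53 libraries (0.0418 to 0.406). Head-to-head pairs had a higher r than tail-to-tail pairs in 51 libraries, than distant head-to-head pairs in 51 and than same-strand pairs in 34. The medians of these classes were 0.0924, 0.125 and 0.233 in the same order, so the same-strand median was above that of head-to-head pairs. These values are correlations in counts with many zeros and share depth and library, so they are given as descriptions.

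Partners were seldom equally abundant. The ratio of their levels in CPM per kb of span had a median absolute log2 of 1.64, close to 1.62 in tail-to-tail, 1.56 in same-strand and 1.80 in distant head-to-head pairs. In 254 pairs (17.6%) the levels were at least 10-fold apart, and in 452 (31.3%) less than 2-fold. The left gene was the higher in 708 pairs and the right gene in 737. The pair in which both genes were most abundant was HG08149/HG08150 on contig 117, 401 bases apart, with 908 and 2898 CPM per kb over all libraries. HG01601/HG01602 on contig 24 followed with 714 and 910 CPM per kb, and HG10892/HG10893 on contig 156 with 626 and 562 CPM per kb. In HG08149 the Zygote libraries gave 721, 705, 552, 711 and 711 CPM and the 64-78 cell libraries 1578, 1043, 1868, 1384 and 955 CPM. HG08150 gave 293, 452, 536, 445 and 516 CPM at Zygote and 3233, 3998, 6708, 5011 and 1683 CPM at 64-78 cell. Both genes of this pair were in every 64-78 cell library above every Zygote library, and their r over stages was 0.84 (0.92 without Comma).

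The highest r among pairs with both genes at 10 CPM or more at some stage belonged to pairs that were high at few stages. HG15488 and HG15489, 46 bases apart on contig 211, had r = 0.998 (0.97 without Comma). The Comma libraries gave 0, 0.831, 2.31, 13.7 and 95.7 CPM of HG15488 and 0, 0.831, 32.4, 31.2 and 198 CPM of HG15489, and no other library was above 6.68 CPM for HG15488 or 11.4 CPM for HG15489. Comma replicate 5 was the highest library of both. HG15116 and HG15117 (564 bases, r = 0.993) were also highest at Comma, with 121, 353, 499, 597 and 459 CPM of HG15116 and 7.49, 24.9, 34.7, 15.3 and 14.6 CPM of HG15117. Without Comma, HG15117 was on at no stage and the pair had no r. The third, HG01762 and HG01763 on contig 25, did not rest on Comma (r = 0.988, and 0.99 without it). Both were high at 2-cell, where HG01762 gave 447, 257, 628, 856 and 883 CPM and HG01763 gave 294, 206, 374, 328 and 345 CPM. Its 4-cell libraries were split, with 634, 4.53, 722, 6.02 and 892 CPM of HG01762, and HG01763 was split in the same libraries, with 491, 0.453, 594, 1.2 and 551 CPM.

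The lowest r were those of pairs in which the genes took opposite courses. HG11214 and HG11215 on contig 165, 922 bases apart, had r = -0.91 (-0.87 without Comma). HG11215 was at 1049, 798, 1441, 1071 and 970.2 CPM at Zygote, in which HG11214 was at 0, 0, 0, 0 and 0.161 CPM. In the 1.5-fold libraries HG11215 was at 30.5, 26.9, 23.2, 9.87 and 116 CPM and HG11214 was at 15.6, 15.6, 13.3, 0 and 16.4 CPM, with replicate 4 at 0. HG11214 was uneven at Comma, at 89.9, 3.32, 41.6, 147 and 0 CPM. HG11874 and HG11875 on contig 172 had r = -0.91 (-0.87 without Comma), with HG11874 at 0, 0.161, 0, 0.185 and 28.0 CPM at Zygote and 55.3, 184, 363, 277 and 63.2 CPM at Comma. HG11875 gave 75.6, 87.4, 88.3, 56.3 and 53.4 CPM and 58.8, 13.3, 0, 12.0 and 0 CPM in the same libraries. HG10925 and HG10926 on contig 156 had r = -0.90, and -0.78 without Comma.

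Changes between stages were tested with edgeR over all genes of the table, for Zygote to 64-78 cell, 64-78 cell to 1.5-fold and 1.5-fold to L1. Consecutive comparisons share a stage, so their calls are given side by side and not set against each other. Each test used the 5 libraries of either stage, and "called" below means an adjusted p under 0.05. The partner ratio was tested with limma on log2((left CPM + 1)/(right CPM + 1)), over all consecutive pairs in which both genes were on in 1 of the stages. Counts from DESeq2, from other edgeR settings or from runs without 1 library have no share over all genes or pairs beside them. These counts show only how far the calls moved, and are not results about the members.

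From Zygote to 64-78 cell, 1733 members passed the filter on low counts and 1413 did not. Of those tested, 167 rose (9.64%) and 92 fell (5.31%). Over all 7926 genes tested, 8.74% were called higher and 5.55% lower, so the members' shares were near the background. The median log2 fold change was 0.26 over the members tested and 0.14 over all genes tested. Without any 1 of the 64-78 cell libraries the number of members that fell was lower, at 56 without replicate 1, 57 without replicate 2, 49 without replicate 3, 55 without replicate 4 and 59 without replicate 5. DESeq2 called 360 members higher and 162 lower, with no share over all genes to set beside them.

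Both partners were tested in 688 pairs. In 8 of these both rose (1.16%, against 1.09% of all consecutive pairs tested), in 5 both fell (0.727% against 0.793%), and in 9 the partners went in opposite directions (1.31% against 0.719%). One gene was called in 176 pairs (25.6% against 23.9% of all consecutive pairs) and neither in 490 (71.2% against 73.5%). The partner ratio changed in 89 of 1007 pairs (8.84%), against 10.3% of all consecutive pairs. These small counts moved with single libraries. Pairs with both genes higher were 14 without Zygote replicate 1, 15 without replicate 2, 14 without replicate 3 and 19 without replicate 5, but 5 without 64-78 cell replicate 5. Pairs with both genes lower were 8 without Zygote replicate 1. Pairs in opposite directions were 5 without 64-78 cell replicate 1 or 2 and 4 without replicate 3 or 4, and the ratio was called in 59, 55 and 57 pairs without 64-78 cell replicates 2, 3 and 4. DESeq2 gave 36 pairs both higher and 16 both lower, and 1 fit of all libraries 5 in opposite directions. At a pseudocount of 10 the ratio was called in 140 pairs (13.9%, against 14.5% of all consecutive pairs).

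The pairs named for each comparison were those with the largest changes whose called genes did not overlap between the stages in any library. In these pairs the lack of overlap was thus a condition of the choice and is no separate evidence, here and in the later comparisons. HG10892 and HG10893 both rose from Zygote to 64-78 cell. HG10892 on contig 156 (minus strand, bases 553948 to 556574) gave 624, 1002, 988, 773 and 682 CPM at Zygote and 4489, 3251, 3904, 3531 and 3605 CPM at 64-78 cell. HG10893 on contig 156 (plus strand, bases 557206 to 557653) gave 364, 83.5, 226, 83.1 and 143 CPM and then 576, 612, 760.1, 781 and 482 CPM. Every later library of each gene was above every earlier one. They changed by log2 folds of 2.47 (SE 0.22, adjusted p = 2.26e-05) and 2.13 (SE 0.40, adjusted p = 0.00331), and the log2 ratio changed by 0.18 (SE 0.71, adjusted p = 0.907). HG15089 and HG15090 on contig 202, 151 bases apart, rose as well, from 92.1 ± 50.1 to 343 ± 143 CPM (n = 5 each) in HG15089 and from 216 ± 97.4 to 1495 ± 495 CPM in HG15090. Their log2 fold changes were 2.21 (SE 0.47, adjusted p = 0.006) and 3.05 (SE 0.39, adjusted p = 0.000235).

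Of the pairs in which both genes fell, HG17331 and HG17332 on contig 236, 709 bases apart, gave the steadier values. HG17331 went from 36.6, 147, 166, 223 and 211 CPM at Zygote to 8.12, 2.09, 14.5, 6.02 and 7.34 CPM at 64-78 cell. HG17332 went from 184, 169, 144, 397 and 313 to 15.1, 11.4, 4.44, 12.7 and 5.22 CPM. Zygote replicate 1 was the lowest Zygote library of HG17331 but stayed above all later ones. Both falls were called, with log2 fold changes of -4.11 (SE 0.72, adjusted p = 0.00202) and -4.34 (SE 0.56, adjusted p = 0.000246). HG01762 and HG01763 fell further, with log2 fold changes of -5.99 (SE 1.33, adjusted p = 0.00779) and -5.58 (SE 1.44, adjusted p = 0.0184), from uneven Zygote levels of 37.0, 119.9, 712, 24.8 and 411 CPM in HG01762. In HG01763 the same libraries gave 25.8, 72.3, 464, 15.7 and 421 CPM, so the same embryos were low in both genes.

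In other pairs the genes parted. HG17291 on contig 236 (minus strand, bases 135948 to 136613) rose from 65.3, 169, 116, 142 and 278 CPM to 926, 1915, 1235, 1298 and 1109 CPM, while HG17292 on contig 236 (plus strand, bases 136877 to 138587) fell from 645, 458, 674, 459 and 351 CPM to 76.0, 202, 114, 101 and 128 CPM. They lie 264 bases apart, and their log2 fold changes were 3.33 (SE 0.40, adjusted p = 0.000127) and -1.75 (SE 0.34, adjusted p = 0.004), and the log2 ratio moved by 5.26 (SE 0.71, adjusted p = 0.00177). HG14955 and HG14956 on contig 196, 267 bases apart, parted in the same way, with log2 fold changes of 2.04 (SE 0.33, adjusted p = 0.00113) and -2.21 (SE 0.43, adjusted p = 0.00424). HG16584 and HG16585 were among the 9 pairs too, with -3.19 (SE 0.90, adjusted p = 0.0286) and 6.59 (SE 0.75, adjusted p = 9.19e-05), although the Zygote libraries of HG16584, at 64.0, 86.9, 1441, 70.5 and 738 CPM, overlapped the later ones, at 12.8 to 86.4 CPM. In HG03922 and HG03923 on contig 45 only the right gene was called. HG03923 fell from 1052 ± 281 to 22.7 ± 21.4 CPM, a log2 fold change of -5.28 (SE 0.78, adjusted p = 0.000589), and HG03922 gave 0.81 (SE 0.96, adjusted p = 0.649), with a change of the log2 ratio of 7.57 (SE 1.43, adjusted p = 0.00691).

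From 64-78 cell to 1.5-fold, 1962 members were tested and 1184 were not. As many rose as fell, 190 each (9.68%). Of all 9423 genes tested, 12.0% were called higher and 7.59% lower. The median log2 fold change was -0.13 over the members tested and 0.02 over all genes tested. DESeq2 called 347 members higher and 213 lower, and a single fit of all libraries called 66 and 64, both without shares over all genes.

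Of 801 pairs with both genes tested, both rose in 22 (2.75% against 2.67% of all consecutive pairs), both fell in 17 (2.12% against 1.12%) and the partners parted in 2 (0.250% against 1.22%). One gene was called in 219 pairs (27.3% against 29.9% of all consecutive pairs) and neither in 541 (67.5% against 65.0%). The partner ratio changed in 117 of 1157 pairs (10.1%), against 15.1% of all consecutive pairs. For the other classes this share was 20.1% in tail-to-tail, 11.1% in same-strand and 17.3% in distant head-to-head pairs, with no test of these differences. The ratio was called in 226 pairs at a pseudocount of 10 (19.5% against 22.8% of all consecutive pairs) and in 66 at 0.1 (5.70% against 9.32%). The pair counts depended on the fit: DESeq2 gave 65 pairs both higher and 5 in opposite directions, and 1 fit of all libraries gave 5 both higher, 4 both lower and 0 in opposite directions (2 at an unadjusted p under 0.05). RLE scaling gave 11 pairs both lower and 4 in opposite directions. Without 1.5-fold replicate 2, both genes fell in 11 pairs.

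HG01811 and HG01812 on contig 25, 580 bases apart, both rose to 1.5-fold. HG01811 was at 0, 0, 0.404, 3.01 and 1.69 CPM at 64-78 cell and at 94.6, 157, 150.3, 70.4 and 158 CPM at 1.5-fold. HG01812 was at 0, 0, 0.404, 8.02 and 5.08 CPM and then at 268, 169, 253, 189 and 212 CPM. The log2 fold changes were 7.11 (SE 0.90, adjusted p = 9.79e-05) and 6.52 (SE 0.97, adjusted p = 0.000353), and the log2 ratio changed by -0.37 (SE 0.54, adjusted p = 0.717). HG00254 and HG00255 on contig 9, 818 bases apart, rose in the same step, HG00254 from 0, 0, 0.404, 1 and 0.423 CPM to 43.4, 25.8, 52.0, 27.5 and 50.4 CPM and HG00255 from 0, 0.299, 3.63, 4.35 and 0 CPM to 87.2, 83.4, 90.7, 78.3 and 83.1 CPM. In each of the 4 genes all 1.5-fold libraries were above all 64-78 cell libraries, as the choice of the pairs required. The changes were 6.94 (SE 0.99, adjusted p = 0.000254) and 6.05 (SE 1.09, adjusted p = 0.00131) on the log2 scale.

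HG10892 and HG10893, which had risen by 64-78 cell, fell again to 1.5-fold by nearly equal amounts. HG10892 was at 899, 758, 411, 569 and 827 CPM and HG10893 at 149.9, 62.4, 100.2, 86.3 and 193 CPM at 1.5-fold, all below their 64-78 cell libraries, with log2 fold changes of -2.24 (SE 0.26, adjusted p = 5.41e-05) and -2.26 (SE 0.29, adjusted p = 0.000118), and the log2 ratio changed by 0.04 (SE 0.51, adjusted p = 0.975). HG13649 and HG13650 on contig 187, 977 bases apart, fell from 228 ± 62.2 to 56.8 ± 29.3 CPM and from 268 ± 60.5 to 67.4 ± 19.1 CPM (n = 5 each), with log2 fold changes of -1.78 (SE 0.40, adjusted p = 0.00644) and -1.83 (SE 0.28, adjusted p = 0.000418). In 1 fit of all libraries neither HG13649 nor HG13650 was called.

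The abundant HG16585 and its partner HG16584 both rose in this step. HG16585 went from 727, 3562, 2681, 2527 and 778 CPM at 64-78 cell to the levels above at 1.5-fold, a log2 fold change of 5.44 (SE 0.54, adjusted p = 1.66e-05). HG16584 went from 32.9, 86.4, 53.3, 21.7 and 12.8 CPM to 143, 134, 157, 432 and 195 CPM, a log2 fold change of 2.67 (SE 0.56, adjusted p = 0.00401). The libraries of the stages did not overlap in either gene.

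Only 2 pairs parted. HG05588 and HG05589 on contig 73, 488 bases apart, crossed over. HG05588 rose from 6.98, 2.69, 0.404, 4.68 and 0.282 CPM to 123, 61.6, 72.7, 38.3 and 25.5 CPM, while HG05589 fell from 532, 596, 374, 107 and 209 CPM to 36.3, 11.8, 8.13, 0 and 38.8 CPM. The log2 fold changes were 4.58 (SE 0.86, adjusted p = 0.00174) and -4.21 (SE 0.93, adjusted p = 0.0053), and the log2 ratio moved by 8.96 (SE 1.02, adjusted p = 0.000152). HG13602 and HG13603 on contig 187 were the other pair, with 1.65 (SE 0.40, adjusted p = 0.00982) and -1.64 (SE 0.27, adjusted p = 0.000706). Under a single fit of all libraries neither pair was called in both genes, since HG05588 and HG13602 were not called. In HG15633 and HG15634 on contig 212, 144 bases apart, only the right gene was called. HG15634 rose from 17.2, 3.59, 8.08, 11.7 and 9.17 CPM to 650.3, 1536, 805, 951 and 1159.9 CPM, a log2 fold change of 6.88 (SE 0.46, adjusted p = 1.51e-06). HG15633 gave 40.2, 51.7, 74.7, 146 and 74.5 CPM and 50.5, 58.1, 76.4, 21.6 and 88.6 CPM, with -0.23 (SE 0.42, adjusted p = 0.767), and the sign of this estimate turned to 0.11 without 64-78 cell replicate 4.

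**Figure D3:**
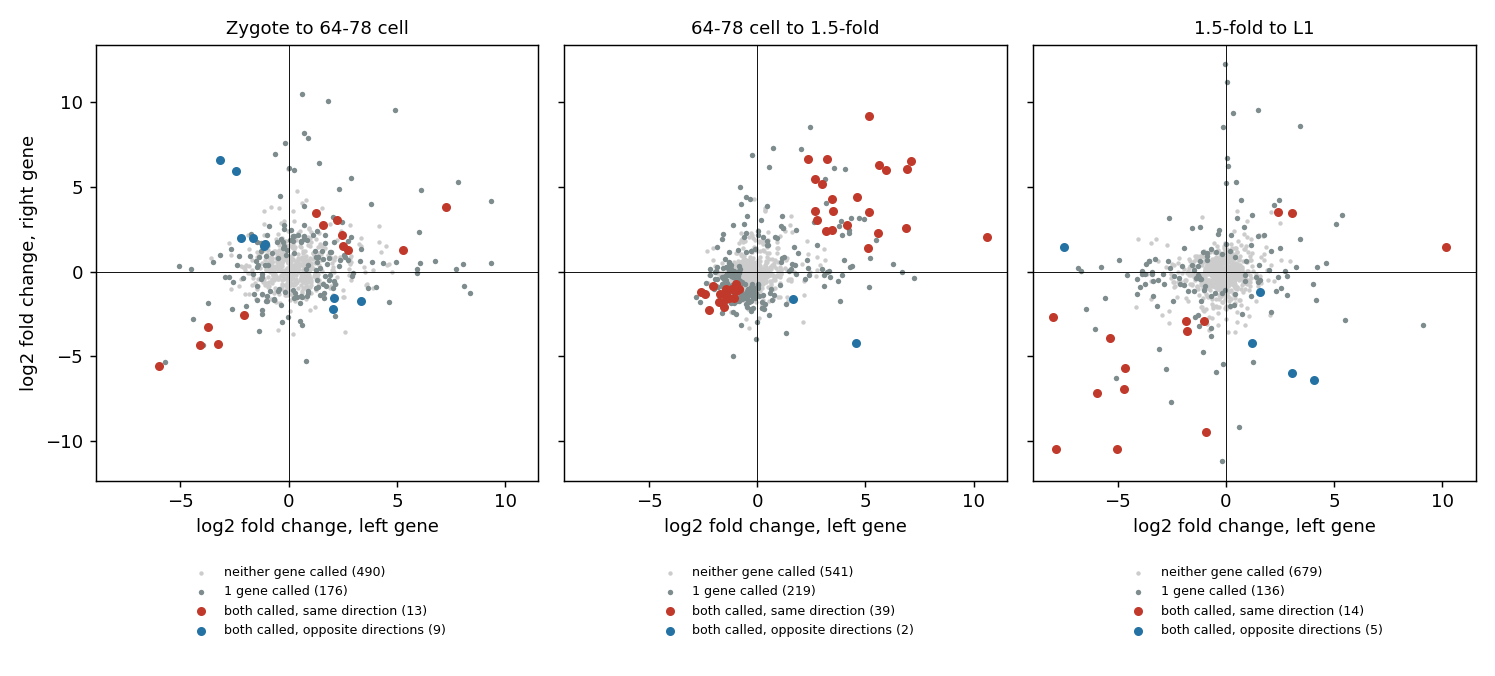
Log2 fold change of the left gene (x) and the right gene (y) of each head-to-head pair with both genes tested by edgeR, for the 3 comparisons. Red points are pairs with both genes called in the same direction (13, 39 and 14), blue points those called in opposite directions (9, 2 and 5), dark grey points have 1 gene called and light grey points neither.

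From 1.5-fold to L1, 2008 members were tested and 1138 were not. Of those tested, 107 rose (5.33%) and 127 fell (6.32%), beside 9.75% and 5.88% of all 10135 genes tested. The median log2 fold change was -0.15 over the members tested and -0.06 over all genes tested. DESeq2 called 169 members higher and 294 lower, and a single fit of all libraries called 36 and 70, both without shares over all genes.

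Both genes were tested in 834 pairs. Both rose in 3 (0.360% against 1.71% of all consecutive pairs), both fell in 11 (1.32% against 0.698%) and the partners parted in 5 (0.6% against 1.01%). One gene was called in 136 (16.3% against 22.6% of all consecutive pairs) and neither in 679 (81.4% against 74.0%). The partner ratio changed in 135 of 1154 pairs (11.7%), against 18.2% of all consecutive pairs, 21.9% of tail-to-tail, 14.6% of same-strand and 18.0% of distant head-to-head pairs. At a pseudocount of 0.1 it was called in 88 pairs (7.63% against 13.2% of all consecutive pairs). DESeq2 gave 11 pairs both higher, 31 both lower and 14 in opposite directions, and 1 fit of all libraries gave 1, 4 and 1. Single libraries moved the pair counts. Both genes rose in 5 pairs without 1.5-fold replicate 1, 2, 3 or 4 or without L1 replicate 4. Both fell in 7 without 1.5-fold replicate 1, 3 or 5 and in 6 without replicate 2, and the partners parted in 3 without 1.5-fold replicate 1 or 3.

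The rise of HG01811 and HG01812 at 1.5-fold was followed by a fall. At L1 HG01811 gave 3.31, 0, 2.2, 0.208 and 2.4 CPM and HG01812 gave 0, 0, 0, 0 and 6.48 CPM. Both were below every 1.5-fold library, as the choice of the pair required. Their log2 fold changes were -5.97 (SE 0.86, adjusted p = 0.000256) and -7.15 (SE 1.28, adjusted p = 0.00144). HG17946 and HG17947 on contig 238, 273 bases apart, also fell together, from very unequal levels. HG17947 went from 25109.8, 26119, 31227, 55039 and 22934 CPM to 18.1, 29.8, 6.02, 12.1 and 29.3 CPM, a log2 fold change of -10.48 (SE 0.78, adjusted p = 1.56e-06). HG17946 went from 25.1, 15.6, 13.6, 2.06 and 35.8 CPM to 0, 0, 0, 0 and 0.24 CPM. Its 290 counts over the 1.5-fold libraries stood against 1 count over the L1 libraries, a ratio of pooled counts per total of 356 with an exact 95% interval of 63.3 to 14098 that covers counting error only. HG16584 and HG16585 fell in this step too, with -5.02 (SE 0.59, adjusted p = 4.67e-05) and -10.49 (SE 0.72, adjusted p = 1.56e-06) on the log2 scale, and HG16584 was then at 5.05, 11.2, 6.32, 4.16 and 1.44 CPM.

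The largest change of a ratio among eligible pairs with partners in opposite directions was that of HG15633 and HG15634, 144 bases apart. HG15633 on contig 212 (minus strand, bases 495074 to 501009) rose to 862, 472, 628, 784 and 1137 CPM at L1, a log2 fold change of 4.10 (SE 0.41, adjusted p = 1.39e-05). HG15634 on contig 212 (plus strand, bases 501153 to 503574), which had risen before 1.5-fold, fell to 21.1, 0.839, 21.6, 1.45 and 6 CPM, with -6.40 (SE 0.84, adjusted p = 0.000125). No L1 library overlapped with a 1.5-fold library in either gene, as the choice of the pair required. The log2 ratio moved by 10.92 (SE 0.80, adjusted p = 1.3e-06). HG00254 and HG00255, which had both risen to 1.5-fold, parted as well. HG00254 went on rising, to 415, 252, 194, 231 and 239 CPM, with 3.06 (SE 0.31, adjusted p = 1.42e-05), a call that was lost in 1 fit of all libraries. HG00255 fell to 0, 0, 1.03, 0.208 and 4.08 CPM, with -6.0 (SE 1.11, adjusted p = 0.00182). The pair named for a change in only 1 gene was HG01832 and HG01833 on contig 25, 991 bases apart. HG01833 went from 3.39, 3.58, 11.1, 0.651 and 15.8 CPM to 7128, 3707, 20567, 13048 and 14892 CPM, a log2 fold change of 11.22 (SE 1.02, adjusted p = 6.13e-06). HG01832 gave 32.2, 46.0, 44.9, 0 and 45.5 and 25.8, 33.8, 18.2, 8.73 and 52.1 CPM, with 0.07 (SE 0.97, adjusted p = 0.976), and this estimate was -0.24 without 1.5-fold replicate 4 and -0.39 without L1 replicate 5.

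HG00831 and HG00832, the 96-base pair that was the most abundant at L1, were picked for this level after the values were seen. They were among the 3 pairs in which both genes rose from 1.5-fold to L1, with 3.07 (SE 0.66, adjusted p = 0.00492) and 3.44 (SE 0.54, adjusted p = 0.000527). They had risen from 64-78 cell to 1.5-fold as well, by 5.96 (SE 1.17, adjusted p = 0.00248) and 5.99 (SE 1.07, adjusted p = 0.00124). HG00832 went from 0.427, 80.7, 69.1, 161 and 5.93 CPM at 64-78 cell to 3459, 5431, 3050.3, 3229 and 1727 CPM at 1.5-fold. HG00831 went from 0, 4.49, 0, 7.02 and 0.282 to 56.0, 331, 128, 33.1 and 71.0 CPM. In neither gene did these stages overlap, while the 1.5-fold and L1 libraries of HG00831 did.

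**Figure D4:**
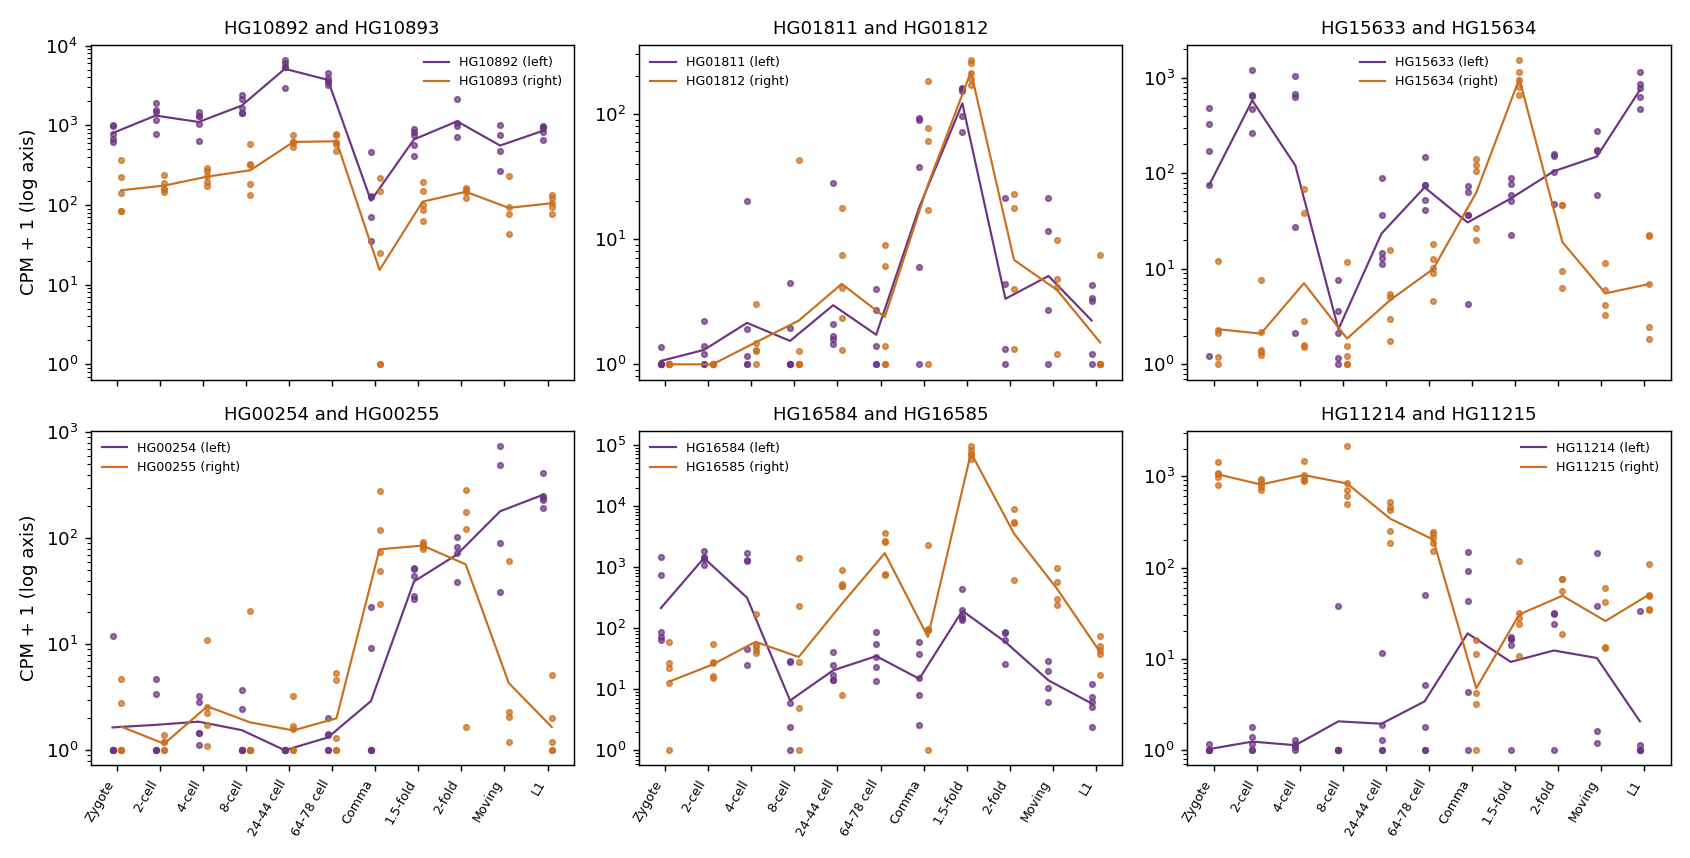
CPM + 1 on a log axis in every library for 6 head-to-head pairs, left gene in purple and right gene in orange. Points are libraries and lines join the geometric means of CPM + 1 of the stages. The genes of HG10892/HG10893, like those of HG01811/HG01812, rise in the same comparison and fall in the next, HG15633/HG15634 and HG00254/HG00255 part between 1.5-fold and L1, HG16585 peaks at 1.5-fold with a mean of 75146 CPM, and HG11214/HG11215 take opposite courses.

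The distance between partners was set beside these calls as a description. From 64-78 cell to 1.5-fold both genes changed in the same direction in 3.82% of the pairs tested up to 250 bases apart, 5% from there up to 500, 3.76% up to 750 and 6.78% up to 1000. The shares were 0.962%, 1.63%, 3.21% and 1.32% from Zygote to 64-78 cell and 3.47%, 2.15%, 0.877% and 0.546% from 1.5-fold to L1, so the comparisons differed in their order by distance. From Zygote to 64-78 cell all 9 parting pairs were at 500 bases or less. The pairs tested there were 104 up to 250 bases apart, 245 from there up to 500, 187 up to 750 and 152 up to 1000. Of the 5 parting pairs from 1.5-fold to L1, 3 lay more than 750 bases apart, as did 183 of the 834 pairs tested. These counts are small and were not tested against distance. The partner ratio test called all 9, 2 and 5 pairs with partners in opposite directions, and 1 of 13, 6 of 39 and 7 of 14 pairs with both genes called in the same direction. The opposite pairs were chosen by edgeR calls on the same libraries. A called ratio in them was therefore close to given and is no separate evidence.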

How the data were processed

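Single embryos of H. glycines were sequenced as paired-end Smart-seq2 libraries. The authors trimmed reads with fastp (0.20.1 per the labels), used HISAT2 for alignment and HTSeq for gene counts, and the deposited values used here are these whole-number counts, with no normalization. Reads were counted without molecular identifiers. For the strand option of HTSeq and for the assembly, the setting is not given in the sources used here. All 54 columns were mapped to a stage by their labels, and 53 libraries were used after 2 near-identical columns were averaged. No genes were left out of the table, whose IDs matched no entry of the reference gene table at hand.

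CPM was computed from library totals of 181109 to 10955776 counts, and intervals cover counting error only. A gene was called on at a stage mean of 1 CPM. Stages were compared with edgeR 4.0.16 (quasi-likelihood test, TMM scaling, filterByExpr, Benjamini-Hochberg adjustment over all genes tested, threshold 0.05) in R 4.3.3, on the libraries of both stages. Partner ratios were tested with limma 3.58.1 at a pseudocount of 1. Correlations used log2(CPM + 1). DESeq2 1.42.0, other scalings, filters, pseudocounts, a replicate block and leaving out libraries were alternatives. On counts simulated for the 3 comparisons, edgeR recovered 50%, 62.5% and 55% of genes changed 8-fold and 0%, 5% and 2.5% of those changed 2-fold, and limma recovered 8.06%, 33.3% and 23.3% of partner ratios in which 1 gene was changed 8-fold. A gene or ratio not called can thus have changed. Figures were drawn with matplotlib 3.10.9.

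The members, stages compared, lists and tests were chosen with earlier results of these data known. The rule for the members itself used only contig, strand and distance. For each comparison, pairs were named if called genes reached a mean of 10 CPM and did not overlap between stages: the 2 pairs each with both genes higher and both lower with the largest smaller change, the 2 in opposite directions with the largest difference, and the 1 pair with a single called gene and the largest ratio change. No pair with both genes higher from 1.5-fold to L1 qualified. Over all stages, the 3 pairs with the highest r, the lowest r and the highest level, and the 2 with the smallest distance, were named.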

Additional observations from a re-analysis of the deposited data

Results flagged for a closer look

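In 112 groups of 4 or 5 libraries checked, 11 held a library whose gap to the nearest other was large against the range of its group by Dixon's 95% limit, and chance gives about 1 in 20 groups. At 1.5-fold, replicate 4 stood apart in 4 measures of the members. It had 37.1% of its counts in members (others 31.4% to 32.4%) and 1745 members at 1 CPM or more (2323 to 2412). It had 660 pairs with both genes at this level (982 to 1040). Its r across pairs, between the deviations of left and right genes from their means over all libraries, was 0.12 (0.28 to 0.32). HG01832 had a log2(CPM + 1) of 0 in the same library, against 5.05 to 5.56 in the others. At 24-44 cell, replicate 3 had 1708 members (1962 to 2022) and 639 pairs (774 to 820) at 1 CPM or more. Zygote replicate 1 was low in HG17331, with a log2(CPM + 1) of 5.23 against 7.20 to 7.81, and in HG03922, with 0 against 5.81 to 7.05. L1 replicate 5 was the only L1 library with counts of HG17946, with a log2(CPM + 1) of 0.31, and of HG01812, with 2.90. What set these libraries apart was not tested.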

How the results depend on the processing

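No alternative run called a member in the opposite direction to the reported call. DESeq2 made more calls: from Zygote to 64-78 cell 360 members higher and 162 lower, with 36 pairs both higher and 16 both lower, from 64-78 cell to 1.5-fold 347 members higher, 65 pairs both higher and 5 opposite, and from 1.5-fold to L1 169 higher and 294 lower, with 11, 31 and 14 pairs. In the second comparison 62.0% of the members it called were higher, against 50% by edgeR. Over all genes tested, edgeR called 1132 higher and 715 lower there. The DESeq2 counts over all genes are not given, so this difference is not read as a result about the members. One fit of all libraries gave 5 opposite pairs in the first comparison. In the second it gave 66 members higher and 64 lower, with 5, 4 and 0 pairs (2 opposite pairs at an unadjusted p under 0.05, and 5 by DESeq2), and in the last 36 and 70, with 1, 4 and 1 pairs. HG13649, HG13650, HG05588, HG13602 and HG00254 were then no longer past the threshold. RLE scaling gave 11 pairs both lower and 4 opposite in the second comparison, and no filter gave 5 pairs both higher in the last.

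The deviations of same-numbered libraries from their stage means had low correlations across genes (r -0.117 to 0.0540, and 1 of 15 correlated best with its own number). Whether same-numbered libraries share a batch is not said and was not tested. With the replicate block 40 members were lower, 1 pair both lower and 3 opposite from Zygote to 64-78 cell, and 1 and 3 pairs were opposite in the later comparisons. The ratio was then called in 49 pairs of the first comparison (4.87%, against 6.73% of all consecutive pairs), and HG01763 and HG13602 were not called. The ratio was called in 140 pairs of the first and 226 of the second comparison at a pseudocount of 10, and in 66 and 88 of the second and last at 0.1.

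The median r over stages was 0.427 by Spearman, 0.412 without Comma and 0.422 in thinned libraries. The share with the same highest stage was 23.0% without Comma and 22.9% with TMM. The median r within stages was 0.131 at a pseudocount of 10, 0.140 at 10 CPM, 0.127 without Comma, 0.137 with TMM and 0.102 thinned, and the level difference was 1.46 at 10 CPM. Counting both columns of the near-identical pair, an alternative chosen after seeing the data and run for the r over stages only, gave a median of 0.523.

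Leaving out 1 replicate gave an r over stages of 0.464 to 0.499, a same-stage share of 28.6% to 32.6%, an r within stages of 0.140 to 0.168 and a level difference of 1.60 to 1.64. In the first comparison it gave 136 to 248 members higher, 49 to 118 lower, 5 to 19 pairs both higher, 4 to 8 both lower, 4 to 12 opposite and 55 to 106 ratios called. The second gave 154 to 204, 132 to 237, 15 to 26, 11 to 23, 2 to 3 and 81 to 128, and the last 90 to 127, 98 to 155, 3 to 5, 6 to 15, 3 to 6 and 108 to 130. The estimate of HG15633 from 64-78 cell to 1.5-fold ran from -0.41 to 0.11, the latter without 64-78 cell replicate 4, and that of HG01832 from 1.5-fold to L1 from -0.39 without L1 replicate 5 to 0.25, with -0.24 without 1.5-fold replicate 4. The causes were not tested.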
